A study of Mus musculus with 12 samples.

Results

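Potassium channel genes were examined in the CA1 pyramidal layer of mice that lack the DNA glycosylases NEIL1, NEIL2 or both. Members were chosen by name: every row of the count table whose NCBI gene number belongs to a protein-coding mouse gene with a symbol that starts with Kcn. This gave 93 of the 18558 genes of the table, in 11 families. Kcnk16, a further such gene of the annotation, has no row in the table. RNA was taken from adult male mice of 3 to 6 months on a C57Bl6 background (the N substrain in the study's methods), killed from the home cage without any intervention. The pyramidal cell layer of dorsal CA1 was cut by laser from frozen sections of 8 µm, and 1 library was made per mouse. The 4 groups were wild type (WT, n = 3), Neil1-/- (n = 2), Neil2-/- (n = 3) and Neil1-/-Neil2-/- (n = 2), named as the genotype labels give them. In another 2 libraries the title and the genotype label name different genotypes, and these enter no mean or test. All 3 knockouts are constitutive, so NEIL1 or NEIL2 is missing in every cell of the body, and the lines were bred apart from WT, so that line and genotype cannot be told apart.

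Potassium channels let potassium ions leave or enter the cell along their gradient and thereby set the resting potential, the shape of the action potential and the firing pattern of neurons. Voltage-gated (Kv) channels open on depolarization, inward rectifiers (Kir) and 2-pore-domain channels carry current near rest, and calcium- or sodium-activated channels follow activity. In CA1 pyramidal neurons, Kv4 channels with their KChIP and DPP partners carry the dendritic A-type current, and Kv7 channels carry the M-current that restrains repetitive firing. NEIL1 and NEIL2 start base excision repair by removing oxidized bases from DNA. The question was whether their loss goes with altered expression of these genes.

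Libraries held 19618923 to 21970180 counts. CA1 markers were high in every library: Wfs1 was at 657 ± 85.1 CPM (counts in relation to the TMM-scaled library size, SD, n = 3) in WT. Neil2 had 5 counts in all 3 WT libraries, whereas the 5 libraries labelled as lacking NEIL2 had 0. Neil1 was at 7.67 and 5.97 CPM in Neil1-/- mice and measured 6.58 and 7.19 CPM for Neil1-/-Neil2-/-, against 2.95 to 4.44 CPM in WT and 3.91 to 4.05 CPM in Neil2-/-. Its counts were thus higher, not lower, in all 4 libraries labelled as lacking NEIL1, without overlap with the other 6. They separate the libraries as the labels do, but gene-level counts give no exons and do not show that the gene's function is lost. A pair of libraries stood apart in a principal component analysis, Neil1-/- replicate 2 and Neil1-/-Neil2-/- replicate 1. In the latter the summed level of 8 oligodendrocyte markers was 1238 CPM against 510 to 602 CPM in WT, that of 8 astrocyte markers 1141 against 700 to 828 CPM, and that of 7 choroid plexus and ependyma markers 396 against 59.0 to 188 CPM. The summed level of 9 thalamus and striatum markers was 83.9 to 92.9 CPM in WT, 153 and 105 in Neil1-/-, 98.9 to 110 in Neil2-/- and 203 and 151 in Neil1-/-Neil2-/- mice, where 4 of the 9 were called higher. Their part in the results on potassium channel genes was not tested. In bulk RNA, fewer cells of a type and less RNA per cell cannot be told apart.

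Potassium channel transcripts made up 0.583% of all counts. Of the 93 genes, 75 had enough counts to be tested and 18 did not, 8 of the latter being at 0 in every WT library. Levels were compared between genes as CPM per kb of exon. On this scale 10 genes held 62.4% of the summed level in WT mice. The highest were Kcnab2, at 137 ± 8.83 CPM per kb (SD, n = 3), Kcnip2, at 82.7 ± 3.64, and Kcnab1, at 75.5 ± 4.59. Kcnab1 and Kcnab2 encode cytoplasmic β subunits of Kv1 channels, and Kcnip2 encodes KChIP2, a calcium-binding partner of Kv4 channels. Auxiliary subunits as a group held 39.2% of the summed level. Among pore-forming genes the highest were Kcnd2, which encodes Kv4.2, at 71.8 ± 1.56 CPM per kb, and Kcnj3, which encodes the G protein-gated subunit GIRK1, at 61.3 ± 2.82. Next came Kcnj4, which encodes the inward rectifier Kir2.3, at 39.4 ± 4.50, and Kcnk1, which encodes the 2-pore channel TWIK-1, at 38.6 ± 3.00. The levels of Kcnj4 and Kcnk1 differed by less than their SD.

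**Figure D1:**
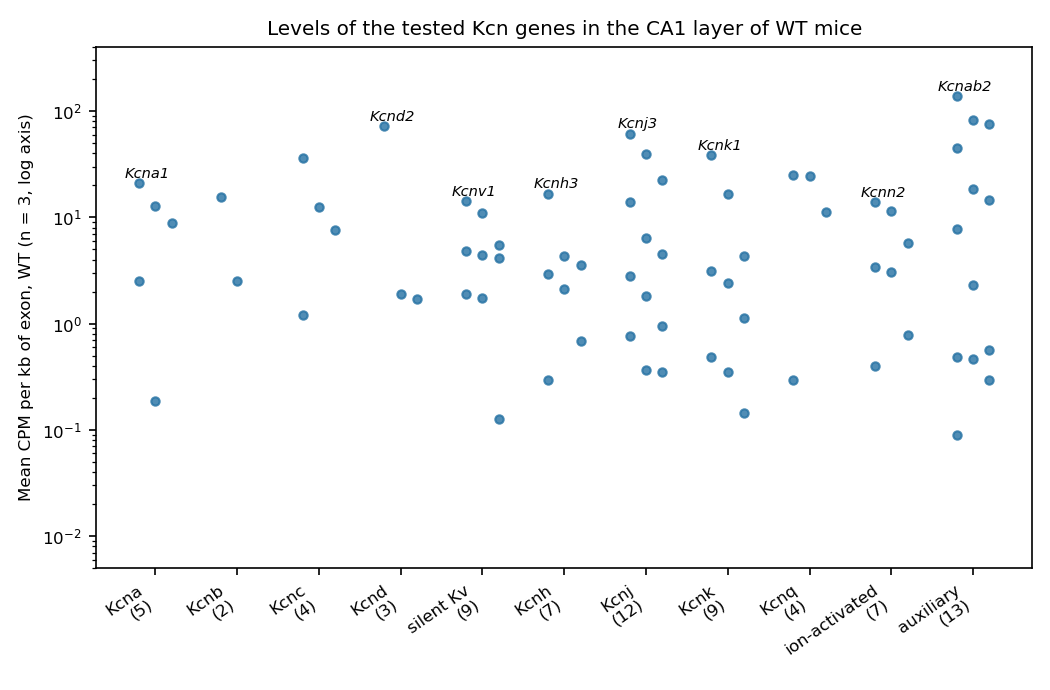
Mean level in WT mice (CPM per kb of exon, n = 3, log axis) of each of the 75 tested potassium channel genes, by family, with the number tested in parentheses and the highest gene of 8 of the 11 families named. The tested genes run from 0.0891 (Kcne2) to 137 CPM per kb (Kcnab2).

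Few potassium channel genes passed the test in any comparison. With edgeR's quasi-likelihood test and Benjamini-Hochberg adjustment over 13982 genes, 1 of the 75 tested genes fell in Neil1-/- mice, where 0.2% of all tested genes were called. None was called in Neil2-/- mice (0.3% of all genes), in Neil1-/-Neil2-/- mice (0.322%), for the interaction of the 2 losses (0.093%) or for loss of NEIL1 over both Neil2 backgrounds (0.336%). For loss of NEIL2 over both Neil1 backgrounds, 2 of 75 rose, against 1.49% of all genes. The test for any difference among the 4 genotypes called 2 of 75, against 1.24%. These background shares depended on single libraries. For loss of NEIL2, 209 genes were called in all, and 69 to 121 without WT replicate 1, Neil2-/- replicate 1, Neil1-/- replicate 2 or either Neil1-/-Neil2-/- library. In Neil1-/-Neil2-/- mice 45 were called, but 17 or 247 without its replicate 1 or 2, and 23 without WT replicate 1. The genes behind these calls were Kcna4, Kcnj4 and Kcnip3.

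Kcna4 encodes Kv1.4, a rapidly inactivating A-type channel of axons and presynaptic terminals, and lies on chromosome 2 from 107290589 to 107326804 (GRCm38). It was at 58.8, 62.5 and 62.8 CPM in the WT libraries and at 42.4 and 42.2 CPM in the Neil1-/- libraries. It was at 58.9, 60.8 and 57.7 CPM in Neil2-/- and at 57.2 and 64.7 CPM in Neil1-/-Neil2-/- mice. Both Neil1-/- libraries thus lay below the other 8, which overlapped each other. Kcna4 fell by 0.54 on the log2 scale in Neil1-/- mice (SE 0.079, 95% interval −0.71 to −0.37, n = 2 against 3, edgeR adjusted p = 0.0163), to 0.689 of the WT level. The log2 fold change was −0.05 in Neil2-/- (95% interval −0.21 to 0.10) and −0.01 in Neil1-/-Neil2-/- mice (−0.18 to 0.16). The difference between the genotypes passed the test as well (edgeR adjusted p = 0.0183), whereas the interaction, 0.58 on the log2 scale (SE 0.111), did not (unadjusted p = 2.13e-04, edgeR adjusted p = 0.149). It was therefore not established that loss of NEIL1 acted differently on Kcna4 with and without NEIL2. The call in Neil1-/- mice was lost without WT replicate 2 or 3 or without either Neil1-/- library (adjusted p up to 0.176), while the log2 fold change stayed between −0.57 and −0.52. Its direction rests on the labels of these 2 libraries, in which Neil1 counts were higher than in WT.

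Kcnj4 lies on chromosome 15 from 79480226 to 79512511 (GRCm38), and its product Kir2.3 is a strong inward rectifier that stabilizes the resting potential. It was at 74.1, 87.0 and 93.1 CPM in WT and at 76.0 and 71.8 CPM in Neil1-/- mice. It was at 108, 111 and 130.0 CPM in Neil2-/- and at 110 and 111 CPM in Neil1-/-Neil2-/- mice. The 5 libraries without NEIL2 were all higher than the 5 with it. Over both Neil1 backgrounds, Kcnj4 rose by 0.50 on the log2 scale with loss of NEIL2 (SE 0.071, 95% interval 0.35 to 0.66, edgeR adjusted p = 0.00383), or 1.42-fold. This call held under all 17 alternatives. Against WT alone, Kcnj4 differed by 0.45 on the log2 scale in Neil2-/- (SE 0.092, adjusted p = 0.0899) and 0.38 in Neil1-/-Neil2-/- mice (SE 0.103, adjusted p = 0.176), neither past the threshold with edgeR's test.

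Kcnip3, on chromosome 2 from 127456498 to 127522094 (GRCm38), encodes KChIP3, a calcium-binding protein that partners Kv4 channels and is also known as the transcriptional repressor DREAM. It was at 48.4, 56.8 and 48.3 CPM in WT and at 45.8 and 47.7 CPM in Neil1-/- mice. It was at 65.4, 70.0 and 59.2 CPM in Neil2-/- and at 64.0 and 58.1 CPM in Neil1-/-Neil2-/- mice. Again no library without NEIL2 overlapped those with it, although WT replicate 2 came within 1.22 CPM of Neil1-/-Neil2-/- replicate 2. Kcnip3 rose by 0.36 with loss of NEIL2 (SE 0.067, 95% interval 0.21 to 0.50, edgeR adjusted p = 0.0197), or 1.28-fold. The call was lost on leaving out WT replicate 1, Neil2-/- replicate 2, replicate 1 of Neil1-/-Neil2-/- or either Neil1-/- library (adjusted p up to 0.0742), with the log2 fold change between 0.33 and 0.41 over all libraries left out in turn.

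**Figure D2:**
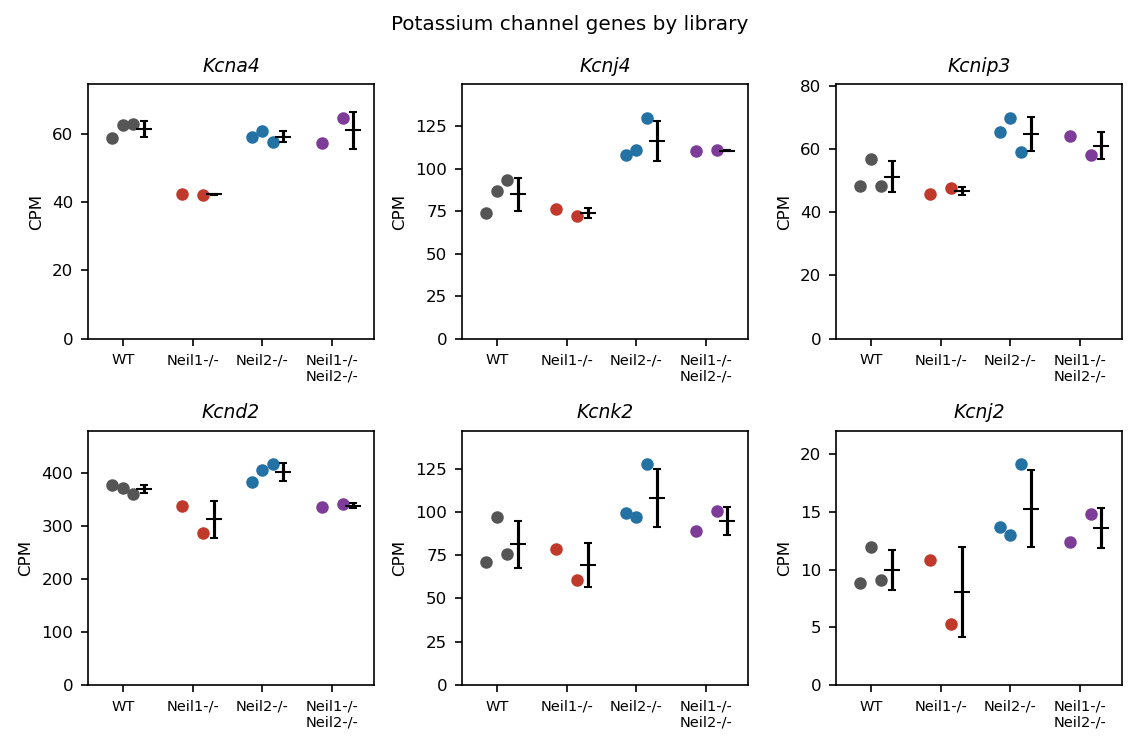
CPM of 6 potassium channel genes in each of the 10 libraries, by genotype, with the group mean and SD as a black bar beside the points. Kcna4 is low in both Neil1-/- libraries (42.4 and 42.2 CPM), and Kcnj4, Kcnip3 and Kcnj2 are higher in all 5 libraries without NEIL2 than in the 5 with it.

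The promoters of Kcna4 and Kcnj4 are shown because these had the larger fold changes of the 3 called genes. They are the RefSeq windows of 300 bases, 250 before the start and 50 after it, written 5′ to 3′ on the gene's strand in GRCm38.p6. The Kcnj4 window belongs to a start inside the gene's span of 79480226 to 79512511, not to the 5′ end of that span. Capitals mark GC boxes (GGGCGG, on either strand, where neighbouring matches may merge) and the cAMP response half-site (TGACG, on either strand).
Kcna4 (chr2:107290339-107290638, plus strand): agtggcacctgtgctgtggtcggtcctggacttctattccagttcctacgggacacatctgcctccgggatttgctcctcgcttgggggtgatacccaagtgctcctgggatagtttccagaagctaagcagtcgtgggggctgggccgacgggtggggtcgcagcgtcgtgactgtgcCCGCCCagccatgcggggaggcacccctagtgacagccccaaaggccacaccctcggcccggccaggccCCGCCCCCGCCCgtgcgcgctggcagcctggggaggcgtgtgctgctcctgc
Kcnj4 (chr15:79505192-79505491, minus strand): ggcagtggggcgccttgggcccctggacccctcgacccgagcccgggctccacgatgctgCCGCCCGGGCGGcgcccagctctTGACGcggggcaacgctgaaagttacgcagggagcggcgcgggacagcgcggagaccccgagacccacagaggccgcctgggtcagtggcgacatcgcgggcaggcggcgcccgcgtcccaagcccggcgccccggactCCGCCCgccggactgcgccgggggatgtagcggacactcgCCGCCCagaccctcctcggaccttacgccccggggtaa
The Kcna4 window held 3 GC boxes and 20 CpG dinucleotides, and the Kcnj4 window 4 GC boxes, 1 half-site and 41 CpG. A GC box stood in 35.7% of all 32851 promoter windows and a half-site in 20.8%, and the median window held 7 CpG. Neither held an E-box (CACGTG, in 7.2% of windows) or a TATA box (TATAAA, in 13.6%). Kcnip3 has 3 annotated starts, with 0, 1 and 2 GC boxes. These matches describe the letters only. Methylation and factor binding were not measured here.

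At an unadjusted p under 0.05, which is a description and not a call, more potassium channel genes appeared than by adjusted p. In Neil1-/- mice 1 was higher and 9 were lower, where 4.09% and 4.89% of all tested genes were. In Neil2-/- mice 8 were higher and 3 lower (5.32% and 4.33% of all genes), and in Neil1-/-Neil2-/- mice 8 were higher and 2 lower (6.33% and 4.73%). For loss of NEIL2 over both Neil1 backgrounds 16 were higher and 3 lower (8.52% and 7.61%), and for loss of NEIL1 5 were higher and 10 lower (7.03% and 6.77%). The interaction had 6 such genes (5.52% of all genes) and any difference between genotypes 20 (16.3%). The median log2 fold change over the 75 genes was −0.12 in Neil1-/- mice, 0.04 in Neil2-/- and 0.05 in Neil1-/-Neil2-/- mice, against medians within 0.01 of 0 over all genes tested. The 3 comparisons share the WT libraries. For loss of NEIL2 the median was 0.096 with 48 of 75 genes above 0, and for loss of NEIL1 it was 0.023 with 39 of 75 above 0. In Neil1-/- mice 43 of 75 were below 0, and the median moved to −0.05 without Neil1-/- replicate 2 and to −0.03 without WT replicate 2.

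**Figure D3:**
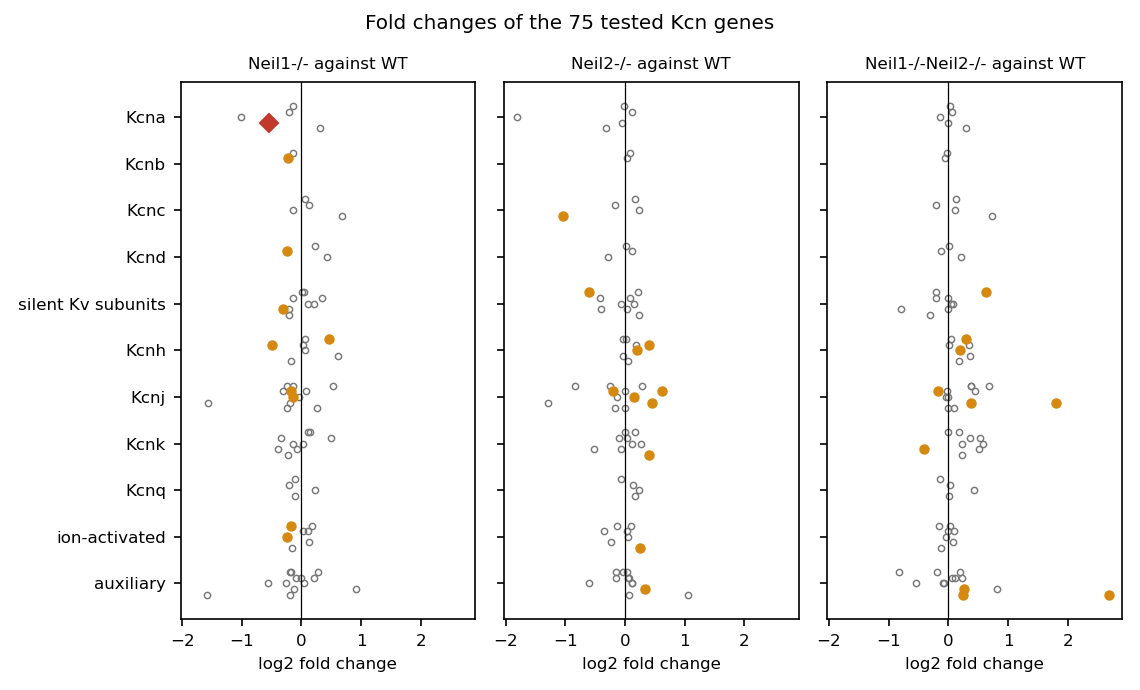
log2 fold change against WT of the 75 tested genes in each knockout, by family. Open circles are genes at an unadjusted p of 0.05 or more, filled circles those below it, and the diamond is Kcna4 (−0.54 in Neil1-/- mice), the 1 gene past the adjusted threshold.

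Among Kv1 genes (Kcna, 5 of 8 tested), which set axonal excitability, Kcna1 was highest at 21.0 ± 0.550 CPM per kb in WT, followed by Kcna4 at 12.7 ± 0.465 and Kcna2 at 8.84 ± 0.309. No other Kcna gene reached an unadjusted p under 0.05 against WT. The log2 fold change in Neil1-/- mice was −0.14 for Kcna1 (95% interval −0.32 to 0.04) and −0.20 for Kcna2 (−0.44 to 0.04). Both intervals leave room for a fall, and neither reaches the size seen for Kcna4. Kcnb2 (Kv2.2), a delayed rectifier, was at 2.52 ± 0.105 CPM per kb and had a log2 fold change of −0.23 in Neil1-/- mice (SE 0.092, edgeR adjusted p = 0.532).

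Among the fast Kv3 genes, known from rapidly firing neurons, Kcnc2 was at 12.4 ± 1.44 CPM per kb and Kcnc1 at 7.51 ± 1.0. With loss of NEIL2, Kcnc2 had a log2 fold change of −0.23 (SE 0.077, adjusted p = 0.16), in edgeR's test. Kcnc2 was at 82.1 to 100 CPM in WT, 94.2 and 97.8 in Neil1-/-, 70.4 to 89.7 in Neil2-/- and 78.1 and 74.7 in Neil1-/-Neil2-/- mice. Interneuron markers, summed over 8 genes, were at 419 to 524 CPM in WT and at 391 and 377 in Neil1-/- mice. In Neil2-/- mice they were at 393 to 413 CPM, and in Neil1-/-Neil2-/- mice at 548 and 439. Of these 8 markers 1 was called lower in Neil2-/- mice and 1 higher for the interaction, where 0.3% and 0.093% of all genes were called. Their part in the Kcnc2 values was not tested. Kcnc4 (Kv3.4) was at 3.69 to 5.67 CPM in WT and at 1.81 to 2.52 CPM in Neil2-/- mice, with no overlap. For Neil2-/- against WT the log2 fold change was −1.03 (SE 0.45, edgeR adjusted p = 0.50). Its highest values were 9.94 CPM in Neil1-/- replicate 2 and 11.5 CPM in Neil1-/-Neil2-/- replicate 1, the same 2 libraries that stood apart, whereas the other library of each of those groups was at 4.24 and 3.15 CPM.

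Of the Kv4 genes, which carry the dendritic A-type current, Kcnd2 stood far above Kcnd3 (1.91 ± 0.528 CPM per kb) and Kcnd1 (1.69 ± 0.0754). Kcnd2 was at 377, 372 and 361 CPM in WT, at 337 and 288 in Neil1-/-, at 383, 406 and 417 in Neil2-/- and at 335 and 341 in Neil1-/-Neil2-/- mice. The 4 grouped libraries without NEIL1 were all lower than the 6 with it. The 2 ungrouped libraries lack NEIL1 under their title as well as their label, and at 360 and 368 CPM they did not sit with the other 4: the first was just below the lowest WT library and the second within the WT range. Over both Neil2 backgrounds its log2 fold change with loss of NEIL1 was −0.25 (SE 0.051, 95% interval −0.36 to −0.14, edgeR adjusted p = 0.0726), which missed the threshold. DESeq2 put it past the threshold (adjusted p = 9.38e-04). In Neil1-/- mice alone it was −0.24 (SE 0.075, adjusted p = 0.404). Kcnd3 and Kcnd1 did not fall with Kcnd2. With loss of NEIL1 their log2 fold changes were 0.46 (SE 0.213, edgeR adjusted p = 0.356) and 0.11 (SE 0.105, adjusted p = 0.668). Kcnd3 was at 14.9 and 34.5 CPM in Neil1-/- mice against 13.3 to 23.5 in WT, the highest value being from Neil1-/- replicate 2.

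The silent subunits, which form no channel alone but modify Kv2 channels, were led by Kcnv1 at 14.3 ± 0.550 and Kcns2 at 11.1 ± 0.290 CPM per kb. Kcnf1 was at 5.48 ± 0.954 and Kcns1 lower, at 4.46 ± 1.24, in WT. Kcnv1 was at 46.8 and 59.6 CPM in Neil1-/- mice against 62.8 to 67.6 in WT, without overlap (log2 fold change −0.30, SE 0.114, edgeR adjusted p = 0.508). Kcns1 was at 20.2 and 17.3 CPM in Neil1-/-Neil2-/- mice against 8.24 to 14.4 in WT (log2 fold change 0.63, SE 0.197, adjusted p = 0.246). Kcnf1 was at 12.4 to 21.3 CPM in Neil2-/- mice and 22.7 to 31.4 in WT (log2 fold change −0.60, SE 0.252, adjusted p = 0.479). None of these differences passed the test over all genes.

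Kcnh genes encode the EAG, ERG and ELK channels, of which ERG channels limit firing during long depolarization. Kcnh3 (ELK2) was highest at 16.7 ± 1.39 CPM per kb, followed by Kcnh6 at 4.32 ± 0.544 and Kcnh2 at 3.59 ± 0.531. Kcnh6 (ERG2) was at 19.8 and 22.3 CPM in Neil1-/- mice against 13.2 to 17.0 in WT, and it was the 1 potassium channel gene higher there at an unadjusted p under 0.05 (log2 fold change 0.46, SE 0.130, edgeR adjusted p = 0.346). Kcnh7 (ERG3) was at 27.3 and 18.1 CPM there against 30.7 to 33.4 in WT (log2 fold change −0.50, SE 0.164, adjusted p = 0.435), with the lower value from Neil1-/- replicate 2. Kcnh3 was at 108 to 113 CPM in Neil2-/- mice and at 108 and 113 CPM in Neil1-/-Neil2-/- mice, against 87.9 to 104 CPM in WT. Its log2 fold change was 0.21 (SE 0.074, adjusted p = 0.372) and 0.20 (SE 0.083, adjusted p = 0.396). Kcnh2 (ERG1) had a log2 fold change of 0.40 in Neil2-/- mice (SE 0.16, adjusted p = 0.441).

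Of the 15 Kcnj genes 12 were tested. Kcnj3 was at 306, 318 and 335 CPM in WT, at 288 and 290 in Neil1-/-, at 356, 356 and 349 in Neil2-/- and at 310 and 327 in Neil1-/-Neil2-/- mice. Against WT the log2 fold change was −0.14 in Neil1-/- mice (SE 0.064, edgeR adjusted p = 0.547) and 0.15 in Neil2-/- mice (SE 0.057, adjusted p = 0.433), and −0.01 in Neil1-/-Neil2-/- mice. Kcnj9 encodes GIRK3, another G protein-gated subunit, and was lower than in any WT library in all 7 knockout libraries, at 80.9 to 89.3 against 90.7 to 103 CPM. Its log2 fold changes of −0.17, −0.20 and −0.17 in Neil1-/-, Neil2-/- and Neil1-/-Neil2-/- mice had adjusted p of 0.546, 0.345 and 0.448, and share the same WT libraries. Kcnj2 encodes Kir2.1, a relative of Kir2.3. It was at 8.87 to 11.9 CPM in WT, at 10.8 and 5.32 in Neil1-/-, at 13.0 to 19.1 in Neil2-/- and at 12.4 and 14.8 in Neil1-/-Neil2-/- mice. With loss of NEIL2 its log2 fold change was 0.67 (SE 0.175, edgeR adjusted p = 0.0818), not past the threshold.

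Kcnj13 (Kir7.1), a channel of transporting epithelia, had 9, 2 and 17 counts in WT and 41 and 23 counts in Neil1-/-Neil2-/- mice. Kcne2, which encodes an accessory subunit also known from epithelia, had 2, 1 and 7 counts in WT and 29 and 14 in Neil1-/-Neil2-/- mice. Neither difference passed edgeR's test (adjusted p = 0.319 and 0.207). Choroid plexus and ependyma markers were at 396 and 156 CPM in these 2 libraries against 59.0 to 188 CPM in WT, and Ttr, a defining marker, at 237 and 77.4 CPM against 0.628 to 110. Their part in these values was not tested.

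The 2-pore-domain genes, whose channels carry the leak current, were led by Kcnk1, with Kcnk2 at 16.4 ± 2.78 and Kcnk12 at 4.34 ± 0.146 CPM per kb. Kcnk2 encodes TREK-1, which opens to stretch, heat and lipids. It was at 71.2, 96.9 and 75.6 CPM in WT, at 78.3 and 60.4 in Neil1-/-, at 99.3, 97.3 and 128 in Neil2-/- and at 89.0 and 100 in Neil1-/-Neil2-/- mice. The groups with and without NEIL2 overlapped through WT replicate 2. Its log2 fold change with loss of NEIL2 was 0.43 (SE 0.104, 95% interval 0.20 to 0.65, edgeR adjusted p = 0.0643). Kcnk9 (TASK-3), an acid-sensitive leak channel, was at 30.8 and 27.1 CPM in Neil1-/-Neil2-/- mice against 35.5 to 40.3 in WT (log2 fold change −0.40, SE 0.130, adjusted p = 0.263).

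Of the Kv7 genes of the M-current, Kcnq3 was at 24.5 ± 3.01 and Kcnq5 at 11.1 ± 0.453 CPM per kb in WT. No Kcnq gene reached an unadjusted p under 0.05 in any comparison with WT. The 95% interval of the log2 fold change in Neil1-/-Neil2-/- mice was −0.30 to 0.34 for Kcnq3 and −0.26 to 0.27 for Kcnq5. Among calcium- and sodium-activated channels, Kcnn2 (SK2) was at 13.9 ± 0.494, Kcnma1 (BK) at 11.5 ± 0.268 and Kcnt2 at 5.67 ± 1.10 CPM per kb. Kcnn2 was at 84.3 and 91.6 CPM in Neil1-/- mice against 100 to 107 in WT, and Kcnma1 at 173 and 170 against 189 to 198. Their log2 fold changes of −0.24 (SE 0.10) and −0.18 (SE 0.081) did not pass edgeR's test (adjusted p = 0.540 and 0.551). Kcnt1, a sodium-activated channel, was at 36.9 to 40.7 CPM in Neil2-/- mice and 28.0 to 36.5 in WT (log2 fold change 0.25, SE 0.098, adjusted p = 0.425).

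Of 17 auxiliary genes 13 were tested. Kcnab1, Kcnab2 and Kcnip2, the most abundant, had log2 fold changes of −0.17, −0.01 and 0.05 in Neil1-/-, 0.03, 0.05 and 0.11 in Neil2-/- and −0.18, 0.05 and −0.09 in Neil1-/-Neil2-/- mice. All their 95% intervals against WT included 0 and lay between −0.43 and 0.26. Kcnip4 (KChIP4) was at 183 and 199 CPM in Neil1-/-Neil2-/- mice against 151 to 171 in WT (log2 fold change 0.24, SE 0.099, edgeR adjusted p = 0.402). Kcnrg, which encodes a cytoplasmic regulator, is the tested potassium channel gene nearest to a targeted gene, 1.57 Mb from Neil2 on chromosome 14. It had 8, 14 and 12 counts in WT and 4, 8 and 10 in Neil2-/- mice, with a 95% interval of the log2 fold change from −1.59 to 0.40.

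**Figure D4:**
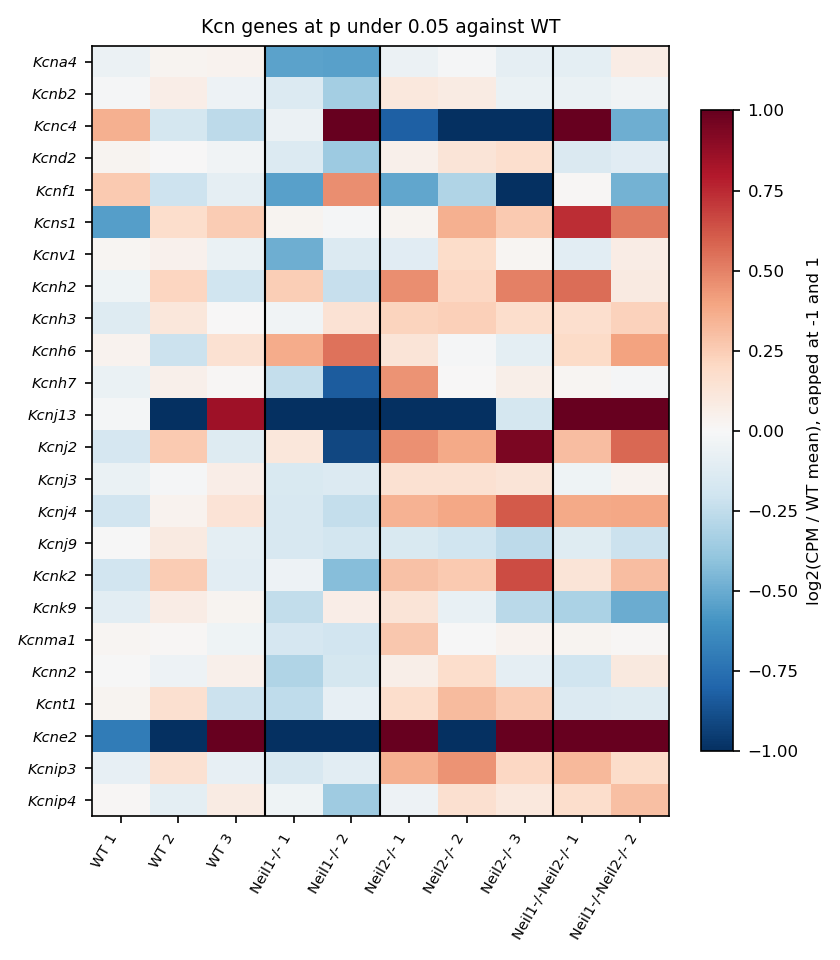
log2 ratio of CPM to the WT mean, capped at −1 and 1, in the 10 libraries for the 24 potassium channel genes at an unadjusted p under 0.05 in any comparison with WT. Kcna4 is low in both Neil1-/- columns, Kcnj4 is high in all 5 columns without NEIL2, and Kcnc4 is high in Neil1-/- replicate 2 and Neil1-/-Neil2-/- replicate 1.

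DESeq2 on the same counts called more potassium channel genes than edgeR in 6 of the 7 comparisons. It called Kcna4 in Neil1-/- mice (adjusted p = 5.47e-06, where 0.615% of all genes were called) and for the interaction (adjusted p = 0.00516, 0.215% of genes). It called Kcnj4 in Neil2-/- (adjusted p = 0.00156, 1.13% of genes) and in Neil1-/-Neil2-/- mice (adjusted p = 0.0479, 1.33% of genes). For loss of NEIL1 it called 4 genes against 1.72% of all genes: Kcnd2 and Kcnj3 were lower, and Kcnh6 and Kcnc4 higher. For loss of NEIL2 it called 6 against 4.79% of all genes, all higher: Kcnj4, Kcnip3, Kcnk2, Kcnj2, Kcnj3 and Kcnh3. For any difference among genotypes it called 13 against 6.23% of all genes. Among them were Kcnj13 (DESeq2 adjusted p = 0.0125), Kcnh7 (0.0254) and Kcnc4 (0.00796).

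**Figure D5:**
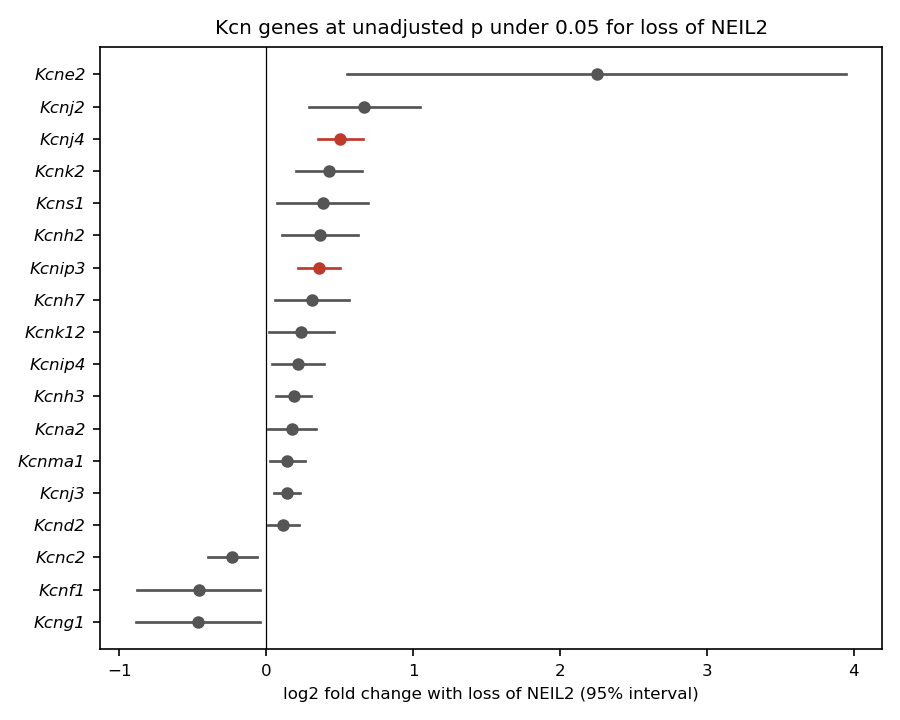
log2 fold change with loss of NEIL2 over both Neil1 backgrounds (points, with 95% intervals as lines) of 18 of the 19 potassium channel genes at an unadjusted p under 0.05. Kcnj4 (0.50) and Kcnip3 (0.36), in red, passed the adjusted threshold of edgeR's test, and 15 of the 18 lie above 0.

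Partners of the channels from other gene families were examined as a list of 24 genes, of which 23 were tested and none was called by edgeR in any of the 7 comparisons. DESeq2 called 1, Adam22, for loss of NEIL1, where it called 1.72% of all genes. At an unadjusted p under 0.05, 5 were lower in Neil1-/- mice, where 4.89% of all genes were. They included Dpp6, a Kv4 partner (log2 fold change −0.19), and Cntnap2 (−0.22), Lgi1 (−0.21) and Adam22 (−0.18) of the axonal Kv1 complex. The edgeR adjusted p of these 4 were 0.540 to 0.547, beside −0.54 for Kcna4 at 0.0163. The other listed partners of the Kv1 complex changed little in Neil1-/- mice: Cntn2 was at −0.05, Dlg1 at −0.03 and Dlg4 at 0.05. Dpp10, another Kv4 partner, was at −0.003. In Neil2-/- mice 1 was higher and 1 lower (5.32% and 4.33% of all genes). The lower was Dlg1, with a log2 fold change of −0.32 (SE 0.092, edgeR adjusted p = 0.242). With loss of NEIL2 over both Neil1 backgrounds Dlg1 was at −0.21 (adjusted p = 0.217), not past the threshold. In Neil1-/-Neil2-/- mice 2 were higher and 3 lower (6.33% and 4.73% of all genes). Dlg4 encodes the scaffold PSD-95, which binds Kv1 and Kir2 channels. It changed by 0.05 or 0.06 on the log2 scale in Neil1-/- and in the double knockout, with unadjusted p of 0.568 and 0.534. In Neil2-/- mice the log2 fold change of Dlg4 was −0.004 (unadjusted p = 0.965).

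The precision of these comparisons was set by the 2 or 3 mice per group. The 95% interval of the log2 fold change lay within 0.5 of 0 for 34 of 75 potassium channel genes in Neil1-/- mice and for 38 of 75 in each of the other knockouts. For the others the interval did not exclude a change of that size in at least 1 direction. Of the tested genes, Neil1-/-Neil2-/- replicate 1 held the highest value of 10 libraries for 24.0% of the 75, against 14.9% of all genes tested. Neil2-/- replicate 1 held the highest value for 22.7%, against 15.7% of all genes. Neil1-/- replicate 2 held the lowest for 28.0%, against 16.0% of all genes. CA1 markers, summed over 7 genes, were at 2514 to 2709 CPM in WT, 2238 and 2525 in Neil1-/-, 2645 to 2908 in Neil2-/- and 2485 and 2697 in Neil1-/-Neil2-/- mice, and their part in the falls in Neil1-/- mice was not tested.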

How the data were processed

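RNA of 12 libraries from the CA1 pyramidal layer was sequenced by the authors as paired 100-bp reads. Deposited were estimated counts for each gene, which the authors' sequencing company made with RSEM on Bowtie2 alignments to GRCm38. HISAT, GATK and StringTie stand in the submitters' processing notes too, without versions. Of the values 87.8% were whole numbers, and all were rounded. The table has no strand information, so genes that overlap on opposite strands cannot be told apart. Of 18558 gene numbers 18429 matched a symbol of the GRCm38 annotation.

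Counts were tested with edgeR 4.0.16 in R 4.3.3 (genes kept by filterByExpr at a minimum of 10 counts, TMM scaling, 1 mean per genotype over 10 libraries, 2-sided quasi-likelihood tests). Benjamini-Hochberg adjustment ran over the 13982 tested genes of a comparison, and 0.05 was the threshold. The interaction is the double knockout minus both single knockouts plus WT, and the losses of NEIL1 and NEIL2 are additive effects over the 10 libraries. CPM carry the TMM scaling, and standard errors and intervals are Wald estimates from the same fit. Totals of 19618923 to 21970180 counts per library limit the genes of few counts, and intervals there are wide. Each library is 1 mouse. Libraries with the same replicate number did not deviate together, so numbers were not taken as pairs. No pair of libraries agreed within sampling noise. The study's methods used DESeq2 against WT and left out 2 outlying samples that they do not name. A figure legend of the study counts 3 mice each for WT and Neil2-/- and 2 each for Neil1-/- and Neil1-/-Neil2-/-. The samples left out were thus Neil1-/- and Neil1-/-Neil2-/- mice. Whether they are among the 10 libraries used here cannot be told. DESeq2 1.42.0 was run here as an alternative.

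Named were every gene called by either tool, in each family up to 3 of the highest level per kb and up to 2 of the smallest unadjusted p under 0.05 in each comparison with WT, members of counts of 5 or fewer, and up to 5 partner genes. Genes outside the rule (Kcnrg, Kcnj10, Kcna5 and Dlg4) were picked with their values in view, and a few genes that the rule names are not reported here. The members, families and lists were chosen with earlier results of these data known. Alternatives were unrounded counts, median-ratio scaling, no filter on low counts, a fit of only the 2 groups compared, robust fitting, a replicate block, DESeq2 and each library left out in turn. Leaving out both outlying libraries together was added after the data were seen. In simulated counts at the real group sizes, edgeR recovered 80%, 82% and 79% of genes changed by 1 on the log2 scale. These are for Neil1-/-, Neil2-/- and Neil1-/-Neil2-/- against WT, over 13856, 13858 and 13837 genes, with 15, 15 and 8 false calls. The changed genes were drawn only from genes above a minimum mean count, and changes smaller than 1 were not simulated. Promoter windows came from RefSeq on GRCm38.p6, where 68 of 93 genes had an entry. Figures were drawn with matplotlib 3.10.9.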

Additional observations from a re-analysis of the deposited data

How the results depend on the processing

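No fold change examined reversed under any alternative. The number of potassium channel genes called moved as follows. With DESeq2 it was 1 in Neil2-/-, 1 in Neil1-/-Neil2-/- mice and 1 for the interaction instead of 0, 4 instead of 0 for loss of NEIL1, 6 instead of 2 for loss of NEIL2 and 13 instead of 2 for any difference among genotypes. Without the filter on low counts it was 1 in Neil2-/- mice, where all genes called rose from 42 to 64. For loss of NEIL1 it was 1 (all genes 47 to 106). For loss of NEIL2 it was 4 (all genes 209 to 301), and for any difference 8 (174 to 521). With only the 2 groups compared it was 0 instead of 1 in Neil1-/- mice (Kcna4, adjusted p = 0.0529). With a replicate block it was 4 for any difference, where all genes called fell from 174 to 99. The number of potassium channel genes was the same as without the block in the other 6 comparisons. The labels give no litter or day behind the replicate numbers, and libraries of the same number had correlations of their deviations from −0.165 to 0.186. Without both Neil1-/- replicate 2 and Neil1-/-Neil2-/- replicate 1 it was 0 in Neil1-/- mice (Kcna4, adjusted p = 0.123), 0 for any difference and 1 for loss of NEIL2 (Kcnj4, while Kcnip3 had an adjusted p of 0.0747). With each library left out in turn it ranged from 0 to 1 in Neil1-/- mice, 0 to 1 in Neil1-/-Neil2-/- mice, 0 to 4 for any difference, 0 to 1 for loss of NEIL1 and 1 to 3 for loss of NEIL2. For any difference it was 0 without Neil1-/- replicate 2, 1 without Neil1-/-Neil2-/- replicate 1, and 4 without Neil1-/- replicate 1 or without Neil1-/-Neil2-/- replicate 2. The number of all genes called, with each library left out in turn, was 17 to 26 (28 with every library) in Neil1-/-, 15 to 48 (42) in Neil2-/- (15 to 23 without any 1 Neil2-/- or WT library) and 17 to 247 (45) in Neil1-/-Neil2-/- mice, 10 to 41 (13) for the interaction, 77 to 368 (174) for any difference, the extremes without Neil1-/-Neil2-/- replicates 1 and 2, 28 to 79 (47) for loss of NEIL1, the extremes without WT replicate 2 and Neil1-/- replicate 1, and 69 to 215 (209) for loss of NEIL2. The cause of these shifts was not tested. Kcnj4 with loss of NEIL2 stayed past the threshold in 17 of 17 alternatives, Kcna4 in Neil1-/- mice in 12 of 18 and Kcnip3 with loss of NEIL2 in 11 of 17. Kcnd2 with loss of NEIL1 passed in 3 of 17, with DESeq2, without the filter and without Neil1-/- replicate 1. With 2 mice in each of 2 groups, a left-out library leaves a lone one that is assumed to vary like the others, and for genes of few counts, such as Kcne2 and Kcnrg, the intervals were too wide to show moderate changes.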

Other observations

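The 2 libraries whose title and genotype label disagree were placed in no group. The library titled as Neil1 and labelled as the double knockout had Kcna4 at 44.2 CPM, Kcnj4 at 53.8 CPM and Kcnip3 at 45.5 CPM. The library titled as the double knockout and labelled as Neil1-/- had Kcna4 at 63.2 CPM, Kcnj4 at 108 CPM and Kcnip3 at 59.9 CPM. The first had 3 counts of Neil2 and the second 0, where all 5 libraries labelled as lacking NEIL2 had 0 and the 5 others 5 to 10, and Neil1 was at 7.13 and 6.72 CPM. Their Kcnd2 levels were 360 and 368 CPM, and their Kcnk2 levels 66.7 and 103 CPM.

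Kcna5, which encodes Kv1.5, was not tested because of its low counts. It had 6, 3 and 4 counts in WT, 4 and 2 in Neil1-/-, 1, 7 and 9 in Neil2-/- mice, and 68 and 9 in Neil1-/-Neil2-/- mice, so that replicate 1 of the double knockout stood alone. Kcnj10, which encodes Kir4.1 and is known from astrocytes and oligodendrocytes, was at 60.7 CPM in that same library and at 25.0 to 41.6 CPM in the other 9 libraries with a group. Their relation to the glial and choroid plexus markers that are also high in that library was not tested.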
